A study of Mus musculus with 20 samples.

Results

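The genes described here are those of amino acid transport and of the response driven by the transcription factor ATF4. They were taken as 35 listed mouse symbols, and all 35 were found by their Ensembl identifiers among the 39017 genes of the expression table. The rule uses symbols and no measured value, but the genes were chosen with earlier results of these data known. The same holds for the lists of related genes used further below. The shares of these genes that passed a test are therefore a description. By role they comprise 6 regulators, 6 stress outputs, 7 enzymes of serine and one-carbon metabolism, 6 other amino acid enzymes and 10 transporters. Genes were tested where they averaged 1 FPKM or more over 18 libraries (fragments per kilobase of exon and per 1000000 counts of the library), and 25 of the 35 passed. The 10 that did not were *Atf3*, *Trib3*, *Nupr1*, *Chac1*, *Stc2*, *Vldlr*, *Pycr1*, *Cth*, *Slc1a4* and *Slc6a9*.

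When cells run short of an amino acid, uncharged tRNA activates the kinase GCN2, which phosphorylates the initiation factor eIF2. General translation then falls, while *Atf4* mRNA is translated more efficiently because of the short reading frames upstream of its coding sequence, so that *Atf4* is controlled in large part after transcription. ATF4 protein binds with C/EBP partners to a composite promoter element and raises genes that make amino acids, charge tRNA and carry amino acids across the plasma membrane. In T cells and T-cell leukemias this supply feeds protein and nucleotide synthesis during rapid growth.

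The samples were T-cell acute lymphoblastic leukemias (T-ALL) of the mouse. They arose in C57Bl/6 x 129Sv/Jae mice after the MOL4070LTR retrovirus was given to pups and pIpC at weaning age. Some of these mice carried Mx1-Cre, which pIpC switches on in blood-forming and other interferon-responsive cells, and others were wild type littermates. Each leukemia is the product of 1 donor mouse, and its cells were transplanted into irradiated wild type F1 recipients, 8 to 12 weeks old, whose bone marrow was sequenced. The sample labels give no genotype for a leukemia, so no comparison by genotype was made. Of the 2 libraries of each leukemia, 1 has VEH in its column name and 1 has DEX. The paper does not explain these letters, and they are used here only as names. No dose or time goes with them in the sources used here.

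The 9 leukemias gave 18 libraries, with totals from 8226528 counts (JW14 DEX) to 201222288 (73M VEH). Pearson's r across the tested genes was 0.927 to 0.990 between both libraries of a leukemia. The libraries of 8633 and JW14 resembled each other as closely, with r from 0.953 to 0.981, and whether these are separate clones was not tested. Ribosomal RNA genes outside the mitochondria exceeded 1 count per M counts (M, 1000000) in 5 libraries, of which 4 were DEX libraries (JW81, JW14, 73M and 20M) and 1 a VEH library (5C). The 11 T lineage markers had a mean log2(FPKM + 1) of 4.75 to 6.27 over the leukemias, against 0.08 to 1.07 for 9 B lineage, 0.65 to 3.21 for 10 myeloid and 0.22 to 2.70 for 9 erythroid markers. For 5 plasma cell markers it was 2.51 to 4.45, and for 6 stroma and endothelium markers 1.28 to 1.99. In a bulk library, fewer cells of a type and less RNA per cell cannot be told apart.

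Promoters of several of these genes carry the core letters of the C/EBP-ATF response element. Windows of 300 bases, from 250 before to 50 after each RefSeq transcription start (GRCm38.p6), were searched on both strands for TGATGNAA, which reads TTNCATCA on the other strand. The motif was present for 11 of the 30 listed genes that have a window (36.7%) and for 1219 of 27025 genes with a window in all (4.51%). By role it was found for 3 of 6 regulators (*Atf3*, *Trib3*, *Nupr1*), 3 of 5 stress outputs (*Chac1*, *Herpud1*, *Vldlr*), 3 of 5 other amino acid enzymes (*Asns*, *Pycr1*, *Got1*), 2 of 7 transporters (*Slc7a11*, *Slc1a4*) and 0 of 7 serine and one-carbon enzymes. Windows were not at hand for *Cth*, *Slc38a1*, *Eif4ebp1*, *Slc7a5* and *Slc1a5*. The match describes letters in the window, not binding.

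The promoters of 5 genes that hold the motif are printed: *Asns*, which varied widely between leukemias, *Slc7a11* and *Herpud1*, which changed between DEX and VEH libraries, and *Chac1* and *Slc1a4*, which passed that test in a fit without the filter. *Trib3*, which passed in that fit too, is not printed because its match lies after the start. Each is given 5′ to 3′ on the strand of its gene, with the motif in capitals. *Slc7a11* is shown as the 120 bases before its start (chr3:50443614-50443733, minus strand), since the motif occurs there once in each orientation, at 66 and 47 bases before the start. The others are shown as 48 bases around the motif: *Asns* (chr6:7693205-7693252, minus strand), *Herpud1* (chr8:94386297-94386344, plus strand), *Chac1* (chr2:119351029-119351076, plus strand) and *Slc1a4* (chr11:20332690-20332737, minus strand).
Slc7a11: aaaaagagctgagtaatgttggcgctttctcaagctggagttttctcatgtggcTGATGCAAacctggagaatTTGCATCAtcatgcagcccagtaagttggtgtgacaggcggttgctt
Asns: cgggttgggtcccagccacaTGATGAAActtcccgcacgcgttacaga
Herpud1: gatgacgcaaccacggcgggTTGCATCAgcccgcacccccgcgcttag
Chac1: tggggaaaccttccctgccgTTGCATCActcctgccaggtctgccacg
Slc1a4: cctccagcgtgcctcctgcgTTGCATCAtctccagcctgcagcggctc
The first base of the motif lay 23 bases before the start in *Asns*, 112 in *Herpud1* and 4 in *Slc1a4*. In *Asns* its free position is A, and in the other windows printed it reads TGATGCAA or, on the other strand, TTGCATCA. Of the 7 genes called below between DEX and VEH libraries, all with a window, *Slc7a11* and *Herpud1* hold the motif and the other 5 do not.

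The first question was how far the leukemias differ in these genes. Levels differed between leukemias for 23 of the 25 tested genes (92.0%) at an adjusted p of 0.05 (edgeR quasi-likelihood test, Benjamini-Hochberg), against 82.5% of all 11339 tested genes, so that the listed genes differed about as often as other genes. The 2 exceptions were *Mthfd2* (adjusted p = 0.351) and *Herpud1* (adjusted p = 0.232), whose leukemia means spanned 8.02 to 13.5 FPKM and 20.2 to 43.0 FPKM. This test takes its spread from the 2 libraries of each leukemia. A DEX minus VEH difference that varies between leukemias therefore adds to that spread. For these 2 genes the SD of that difference was 0.62 and 0.52 in log2(FPKM + 1), so a missing call does not show equal levels. The leukemia with the highest mean was 8633 for 9 of the 25 genes, JW81 for 7 and 5C for 5. The lowest mean was that of 20M for 10 genes and of 73M for 5. The mean log2(FPKM + 1) over all 35 genes was 2.81 ± 0.21 (SD, n = 9 leukemias), from 2.46 in 20M to 3.09 in 8633.

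**Figure D1:**
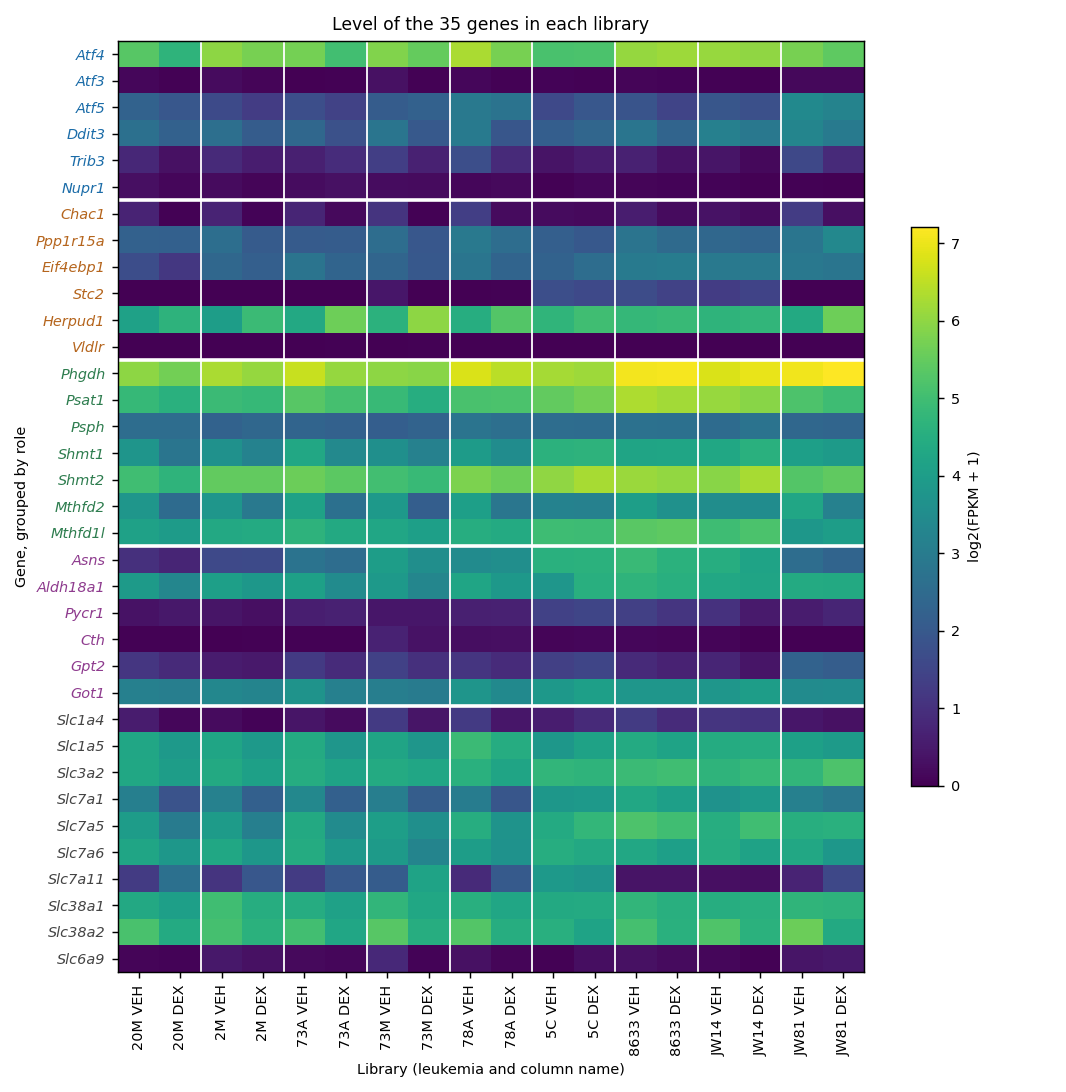
Level of each of the 35 genes, grouped by role (rows), in the VEH and DEX libraries of the 9 leukemias (columns), with colour for log2(FPKM + 1). Phgdh, Shmt2, Atf4 and Psat1 are bright in all 18 libraries, while Asns runs from 0.679 FPKM in the DEX library of 20M to 28.7 FPKM in the VEH library of 8633.

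Among the other amino acid enzymes, *Asns* (asparagine synthetase, which makes asparagine from aspartate and glutamine, chr6:7675169-7693254) had the widest spread of the list by the SD of log2(FPKM + 1) over leukemias, 1.36. Its leukemia means ran from 0.846 FPKM in 20M to 26.0 FPKM in 8633, a ratio of 30.7, and it differed between leukemias with an adjusted p of 2.53e-09 (edgeR). In the VEH and DEX libraries its level was 28.7 and 23.4 FPKM in 8633, 22.6 and 23.4 FPKM in 5C, and 21.3 and 17.2 FPKM in JW14. In 73M it was 15.1 and 10.7 FPKM and in 78A 10.03 and 10.9 FPKM. The ranges of 8633 and 5C met, those of 73M and 78A overlapped, and each of these leukemias stayed above the remaining 4. In 73A *Asns* stood at 5.70 and 4.94 FPKM, and in JW81 at 4.99 and 4.05 FPKM. In 2M it was 2.03 and 2.06 FPKM, and in 20M 1.01 and 0.679 FPKM. Thus both libraries of a leukemia lay close together, and 20M was the lowest in each column. The other 3 tested enzymes spread less. *Aldh18a1*, which makes the precursor of proline and ornithine from glutamate, had means from 11.4 FPKM in 73M to 23.6 FPKM in 8633. *Got1*, the cytosolic aspartate aminotransferase, ranged from 7.24 FPKM in 73M to 14.6 FPKM in 5C. *Gpt2*, the mitochondrial alanine aminotransferase, ranged from 0.440 FPKM in 2M to 3.58 FPKM in JW81. *Pycr1* (proline synthesis) and *Cth* (cystathionine gamma-lyase, which releases cysteine) averaged 0.723 and 0.104 FPKM.

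The serine and one-carbon enzymes had the highest mean log2(FPKM + 1) of the roles, at 4.52, and all 7 passed the filter. Each other role includes genes under the filter, and *Atf4* (51.3 FPKM) exceeded all of these enzymes except *Phgdh*. *Phgdh*, which takes 3-phosphoglycerate out of glycolysis as the first step of serine synthesis, averaged 92.6 ± 31.7 FPKM (SD, n = 9 leukemias), from 55.7 FPKM in 20M to 139 FPKM in JW81. *Psat1*, the aminotransferase of the next step, averaged 40.9 ± 17.9 FPKM. Its libraries lay at 72.5 and 78.7 FPKM in 8633 and at 60.4 and 67.4 FPKM in JW14, above the other 7 leukemias, whose highest library was that of 5C DEX at 50.6 FPKM. *Psph*, the phosphatase of the last step, was far lower and varied little, with means from 3.67 FPKM in 73M to 5.50 FPKM in 78A. The steps of 1 pathway thus differed in level, although merged exon length can overstate the transcript length of a gene and so lower its FPKM. Mitochondrial *Shmt2*, which splits serine into glycine and a one-carbon unit, averaged 49.1 ± 16.1 FPKM, from 28.1 FPKM in 20M to 69.8 FPKM in 5C. Its cytosolic counterpart *Shmt1* averaged 14.8 ± 5.22 FPKM, and it too was lowest in 20M (9.25 FPKM) and highest in 5C (24.0 FPKM). *Mthfd1l*, which releases formate from mitochondria, ranged from 14.1 FPKM in JW81 to 40.9 FPKM in 8633.

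Among the regulators, *Atf4* (chr15:80255184-80257541, plus strand) averaged 51.3 ± 13.6 FPKM (SD, n = 9 leukemias), from 32.1 FPKM in 20M to 68.5 FPKM in 8633, and differed between leukemias (edgeR, adjusted p = 0.000357). *Atf4*, *Slc38a1* and *Slc38a2* lie on chromosome 15. There the other 416 tested genes were each set against their median over leukemias. The median of these differences ran from 0.25 below (20M and JW81) to 0.22 above (78A) on the log2 scale. *Atf4* stood at 5.01 on that scale in 20M and 5.58 in JW81, against 6.01 in 78A, and the part of the chromosome in these levels was not tested. *Atf5*, a related factor that is also translated under stress, was 1.74 FPKM in 2M and 9.06 FPKM in JW81, and both libraries of JW81 (9.76 and 8.37 FPKM) exceeded all others. *Ddit3*, which encodes CHOP, averaged 5.01 ± 1.46 FPKM. The pseudokinase gene *Trib3*, which restrains ATF4, and the genes *Atf3* and *Nupr1*, which are strongly raised in stressed cells, averaged 0.766, 0.0659 and 0.104 FPKM. These last 3 were the regulators under the filter.

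Among the stress outputs, *Herpud1*, which acts in the degradation of proteins from the endoplasmic reticulum, averaged 29.2 ± 6.94 FPKM. *Eif4ebp1*, a brake on cap-dependent translation, averaged 4.81 ± 1.64 FPKM, with 1.77 FPKM in 20M and 6.97 FPKM in 8633. *Ppp1r15a* encodes GADD34, the phosphatase subunit that reverses the phosphorylation of eIF2, and averaged 4.55 ± 1.43 FPKM. *Stc2*, a secreted glycoprotein gene, was detected in a pattern of its own. Its VEH and DEX libraries stood at 2.29 and 2.00 FPKM in 5C, 2.21 and 1.69 FPKM in 8633, and 1.44 and 1.71 FPKM in JW14. In 73M the VEH library had 0.363 FPKM and the DEX library 0.0120 FPKM, the latter from 1 count, and the other libraries were at most 0.0246 FPKM, with 0 to 4 counts each. The 3 leukemias with *Stc2* were thus also the 3 with the highest *Asns*, a likeness seen over 9 leukemias of which 2 resemble each other in most genes. *Vldlr* was at most 0.0299 FPKM in any library.

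The transporters were spread over a wide range of levels. *Slc38a2* (SNAT2, a sodium-coupled carrier of small neutral amino acids) averaged 27.9 ± 3.87 FPKM, *Slc3a2* (the heavy chain that brings the SLC7 light chains to the membrane) 22.8 ± 5.31 FPKM, and *Slc38a1* (SNAT1) 21.8 ± 2.89 FPKM, each as SD over 9 leukemias. *Slc7a5*, the light chain LAT1 that imports leucine and other large neutral amino acids, ranged from 10.9 FPKM in 20M to 33.4 FPKM in 8633. *Slc1a5*, a glutamine carrier, ranged from 15.0 FPKM in 5C to 25.02 FPKM in 78A. *Slc7a6*, a light chain for arginine and neutral amino acids, averaged 16.2 ± 2.68 FPKM. These 6 genes were above 7 FPKM in every one of the 18 libraries. *Slc7a1*, the arginine and lysine carrier CAT1, was more uneven, with leukemia means from 4.97 FPKM in 78A to 17.3 FPKM in 8633. All libraries of 5C, 8633 and JW14 (11.8 to 19.01 FPKM) were above all libraries of the other 6 leukemias (2.56 to 9.36 FPKM).

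*Slc7a11* (chr3:49892526-50443614), the cystine importer that feeds glutathione synthesis, had the second widest spread by the SD of log2(FPKM + 1), 1.16. Its libraries stood at 13.5 and 12.6 FPKM in 5C, but at 0.312 and 0.297 FPKM in 8633 and at 0.237 and 0.206 FPKM in JW14. The leukemia means differed by a ratio of 58.9 (edgeR between leukemias, adjusted p = 2.29e-05). *Asns* and *Stc2*, high in all 3 of these leukemias, and *Slc7a11* therefore did not share their order. *Slc1a4*, a carrier of alanine, serine and cysteine, averaged 0.610 FPKM and *Slc6a9*, the glycine carrier GLYT1, 0.199 FPKM.

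**Figure D2:**
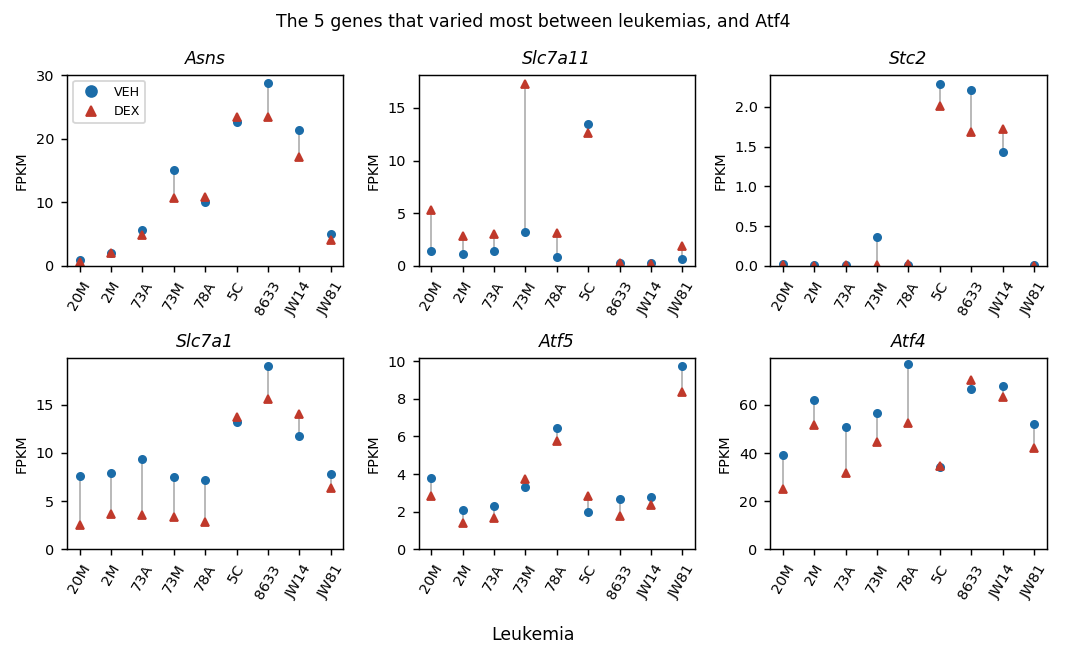
FPKM of the 5 genes with the largest SD of log2(FPKM + 1) over leukemias and of Atf4, by leukemia (horizontal axis), with circles for the VEH and triangles for the DEX library, joined by a line. Asns, Stc2 and Slc7a1 are high in 5C, 8633 and JW14, whereas Slc7a11 is near 0 in 8633 and JW14 and at 13.5 and 12.6 FPKM in 5C.

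The second comparison was between the DEX and VEH libraries within each leukemia, fitted in edgeR with the leukemia as a block. Of the 25 tested genes 7 passed an adjusted p of 0.05 (28.0%), against 1475 of all 11339 genes (13.0%). Of the 7, 5 were lower in the DEX libraries (all genes, 6.79% lower): the transporters *Slc38a2*, *Slc7a6* and *Slc7a1*, the mitochondrial folate enzyme *Mthfd2* and the regulator *Ddit3*. The remaining 2, *Slc7a11* and *Herpud1*, were higher (all genes, 6.22% higher). The fitted change was below 0 for 20 of the 25 genes, with a median of -0.19 on the log2 scale, where the median of all genes was 0.00. The mean log2(FPKM + 1) of the 35 genes was lower in the DEX library in 8 of 9 leukemias, with a mean difference of -0.18 ± 0.15 (SD), and 5C was the exception with a difference of 0.09.

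**Figure D3:**
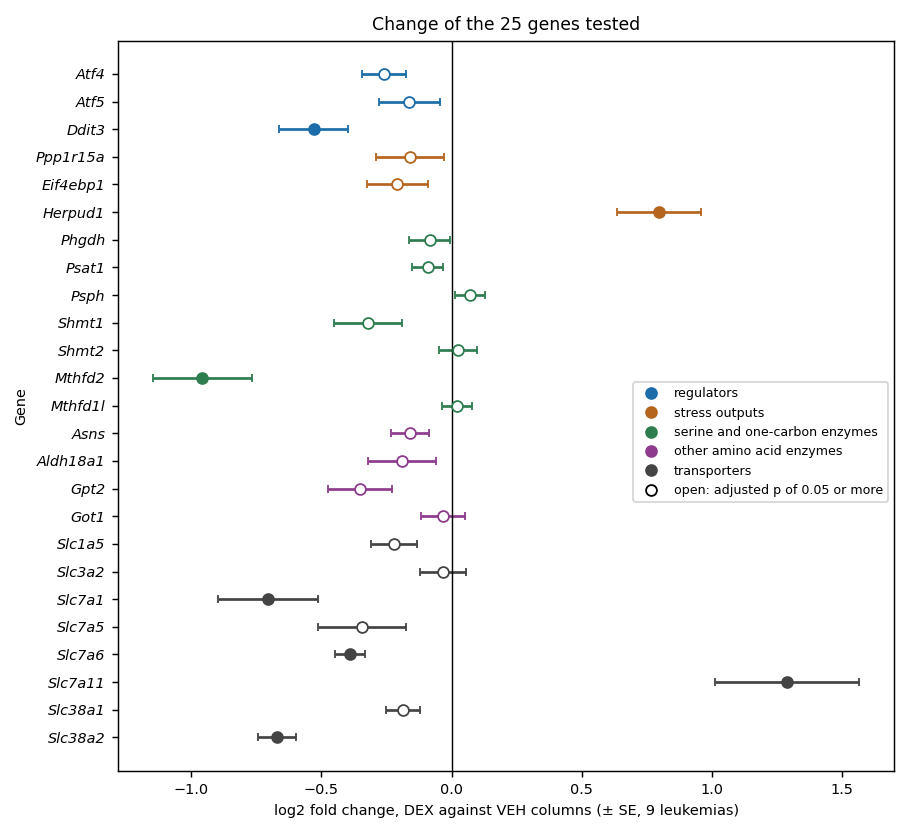
Fitted log2 fold change of the 25 tested genes between DEX and VEH libraries (horizontal axis, with standard error, 9 leukemias), coloured by role. Filled points passed an adjusted p of 0.05. They are Slc7a11 (1.29) and Herpud1 (0.80) to the right of 0, and Ddit3, Mthfd2, Slc7a1, Slc7a6 and Slc38a2 (-0.39 to -0.96) to the left.

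*Slc38a2* (chr15:96687392-96699730, minus strand) changed in the same direction in every leukemia. In the VEH libraries it ranged from 22.3 FPKM in 5C to 47.2 FPKM in JW81, with a median of 34.1 FPKM, and in the DEX libraries from 17.2 FPKM to 23.4 FPKM, with a median of 21.6 FPKM. It was lower in the DEX library of 9 of 9 leukemias, and 8 of the 9 VEH libraries lay above every DEX library, 5C being the exception. The fitted log2 fold change was -0.67 ± 0.07 (SE, adjusted p = 0.000874), a ratio of 0.628. *Slc7a6* fell in 9 of 9 leukemias as well. Its VEH libraries ranged from 14.3 to 21.3 FPKM (median 18.9) and its DEX libraries from 8.56 to 19.3 FPKM (median 13.2), so that the groups overlapped while each pair moved down. The fold change was -0.39 ± 0.06 (SE, adjusted p = 0.00338).

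*Slc7a1* was lower in the DEX library of 7 leukemias and higher in 5C and JW14. The VEH libraries spanned 7.14 to 19.01 FPKM (median 7.93) and the DEX libraries 2.56 to 15.6 FPKM (median 3.67). In 20M, 2M, 73A, 73M and 78A the level went from between 7.14 and 9.36 FPKM to between 2.56 and 3.67 FPKM, without overlap. The fitted fold change was -0.71 ± 0.19 (SE, adjusted p = 0.0348). Of the other transporters tested, *Slc38a1* had a fitted log2 fold change of -0.19 ± 0.07 (adjusted p = 0.0815), *Slc1a5* of -0.22 ± 0.09 (adjusted p = 0.114), *Slc7a5* of -0.34 ± 0.17 (adjusted p = 0.186) and *Slc3a2* of -0.03 ± 0.09 (adjusted p = 0.819). These 4 did not pass in this edgeR fit. *Slc38a1* passed in DESeq2 (adjusted p = 0.0435) and in edgeR without 5C (adjusted p = 0.0433), *Slc1a5* without 5C (adjusted p = 0.0154), and *Slc1a5* and *Slc7a5* in the 4 leukemias without a library of the ribosomal RNA group (adjusted p = 0.0467 and 0.0373).

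*Slc7a11* moved the other way. Its VEH libraries ranged from 0.237 FPKM in JW14 to 13.5 FPKM in 5C (median 1.11) and its DEX libraries from 0.206 FPKM in JW14 to 17.3 FPKM in 73M (median 3.06). It was higher in the DEX library of 20M (1.39 and 5.34 FPKM in VEH and DEX), 2M (1.11 and 2.88), 73A (1.39 and 3.06), 73M (3.27 and 17.3), 78A (0.831 and 3.13) and JW81 (0.651 and 1.93). In 5C, 8633 and JW14 the DEX library was slightly lower. The groups therefore overlapped widely across leukemias, and the fitted log2 fold change within leukemias was 1.29 ± 0.28 (SE, adjusted p = 0.0136), a ratio of 2.45.

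*Mthfd2*, which oxidizes the one-carbon unit in mitochondria, was lower in the DEX library of 9 of 9 leukemias. Its VEH libraries ranged from 8.12 to 18.2 FPKM (median 13.7) and its DEX libraries from 3.47 to 11.6 FPKM (median 6.50). The pairs of 5C (8.12 and 7.92 FPKM) and JW14 (10.7 and 10.4 FPKM) hardly differed, and that of 73M (13.7 and 3.47 FPKM) differed most. The fitted fold change was -0.96 ± 0.19 (SE, adjusted p = 0.0101), a ratio of 0.515. The remaining 6 enzymes of serine and one-carbon metabolism did not pass. *Phgdh* had a fitted change of -0.08 ± 0.08 (adjusted p = 0.480), *Psat1* of -0.09 ± 0.06 (adjusted p = 0.312) and *Shmt2* of 0.02 ± 0.07 (adjusted p = 0.851). *Psph* and *Mthfd1l* had fitted changes of 0.07 and 0.02. *Shmt1* had -0.32 ± 0.13 (adjusted p = 0.119) and went from 12.6 to 5.91 FPKM in 20M and from 19.2 to 9.46 FPKM in 73A, while in JW14 it went from 18.7 to 22.9 FPKM.

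*Herpud1* was higher in the DEX library of 9 of 9 leukemias. The VEH libraries lay between 15.2 and 26.9 FPKM (median 21.4) and the DEX libraries between 24.2 FPKM in 20M and 62.3 FPKM in 73M (median 30.8). In 8633 (26.9 and 27.8 FPKM) and JW14 (24.9 and 25.6 FPKM) the pair was nearly level. The fitted change was 0.80 ± 0.16 (SE, adjusted p = 0.0110), a ratio of 1.74. The other 2 stress outputs tested did not pass, with -0.16 for *Ppp1r15a* (adjusted p = 0.417) and -0.21 for *Eif4ebp1* (adjusted p = 0.237).

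Among the regulators *Ddit3* was lower in the DEX library of 8 leukemias. The VEH libraries ranged from 3.46 to 8.69 FPKM (median 6.01) and the DEX libraries from 2.44 to 6.81 FPKM (median 3.68), and 5C went the other way, from 3.46 to 4.21 FPKM. The fitted change was -0.53 ± 0.13 (SE, adjusted p = 0.0258). *Atf4* mRNA did not pass: its VEH libraries ranged from 34.1 to 76.9 FPKM (median 56.8) and its DEX libraries from 24.9 to 70.4 FPKM (median 44.7). It was lower in 7 leukemias, with 76.9 and 52.4 FPKM in 78A, and higher in 5C (34.1 and 34.8 FPKM) and 8633 (66.6 and 70.4 FPKM). The fitted change was -0.26 ± 0.08 (SE, adjusted p = 0.0617), and it passed under 7 of the 21 alternatives, with an adjusted p from 0.0260 in DESeq2 to 1.00 without the leukemia in the model. *Atf5* had a fitted change of -0.16 (adjusted p = 0.366).

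The 4 other amino acid enzymes tested had fitted changes below 0 and 0 passed in edgeR, where 1 had an unadjusted p under 0.05, while 1 passed in DESeq2 (*Gpt2*). For *Asns* the VEH median was 10.03 FPKM and the DEX median 10.7 FPKM, with a fitted change of -0.16 ± 0.07 (SE, adjusted p = 0.163). Its differences between leukemias were thus far larger than those between the libraries of 1 leukemia. *Gpt2* had -0.35 ± 0.12 (adjusted p = 0.0778), *Aldh18a1* -0.19 ± 0.13 (adjusted p = 0.334) and *Got1* -0.03 ± 0.08 (adjusted p = 0.823).

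**Figure D4:**
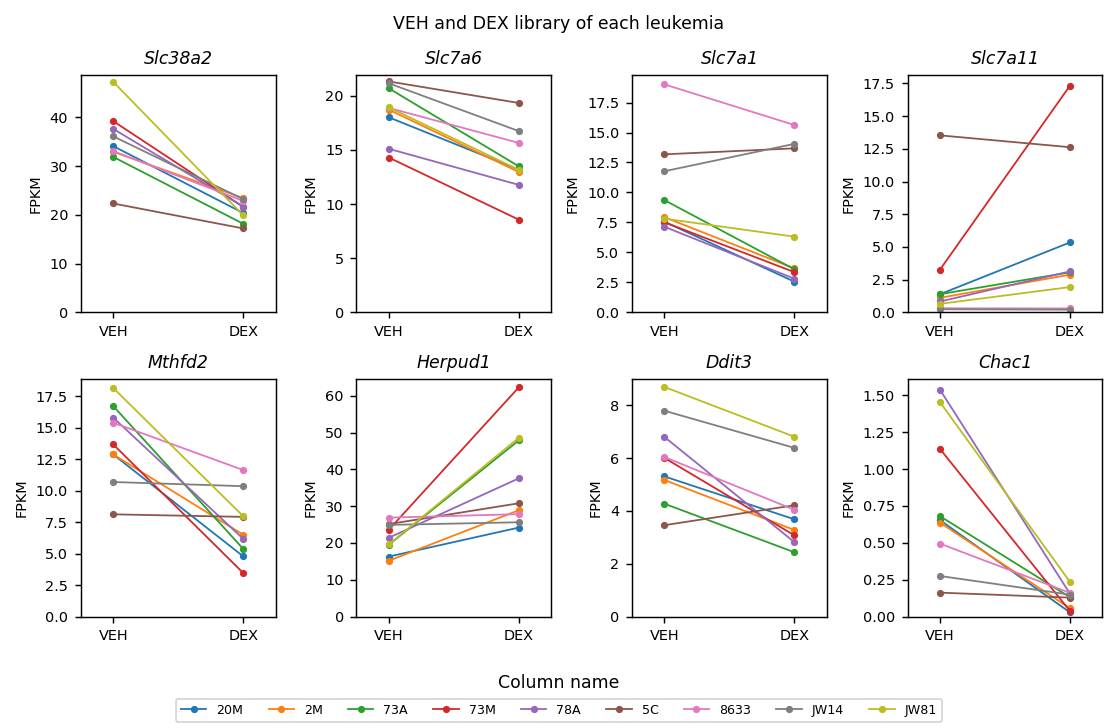
FPKM in the VEH and DEX library of each leukemia (coloured line) for the 7 genes that passed the test and for Chac1, which was under the filter. All 9 lines fall for Slc38a2, Slc7a6, Mthfd2 and Chac1 and rise for Herpud1, while the Slc7a11 lines of 5C, 8633 and JW14 do not rise.

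Some members under the filter were in reach of a fit over all 28697 genes with a count, in which 1803 passed (6.28%). *Chac1*, which degrades glutathione in the cytosol, was at 0.162 FPKM (5C) to 1.54 FPKM (78A) in the VEH libraries, with a median of 0.653 FPKM, and at 0.0283 FPKM (20M) to 0.236 FPKM (JW81) in the DEX libraries, with a median of 0.131 FPKM. It was lower in the DEX library of 9 of 9 leukemias, though in 5C by 0.162 against 0.128 FPKM. The DEX libraries hold 1 to 8 *Chac1* counts each and the VEH libraries 3 to 374, and the fitted log2 fold change, -2.63 ± 0.34 (adjusted p = 5.07e-06), leans on these few counts. *Slc1a4* (-0.98 ± 0.24, adjusted p = 0.0116, lower in 8 of 9) and *Trib3* (-0.84 ± 0.24, adjusted p = 0.0258, lower in 7 of 9) also passed in that fit, in which 12 of the 35 genes passed in all. *Slc1a4* went from 1.32 to 0.364 FPKM in 78A and from 0.496 to 0.821 FPKM in 5C. *Trib3* went from 2.32 to 0.822 FPKM in 78A and from 0.561 to 0.870 FPKM in 73A. The other 7 members under the filter did not pass in it.

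The size of the change was uneven over leukemias. The median size of the change of the 7 genes that passed was 0.13 in 5C, 0.27 in 8633 and 0.24 in JW14 on the log2(FPKM + 1) scale, and 0.71 to 1.03 in the other 6. The same median over all tested genes was 0.11 to 0.27, and the genes were chosen by this contrast, so the values are a description. Of the 25 tested genes, 19 to 22 were lower in the DEX library in 20M, 2M, 73A, 73M and 78A, 18 in 8633, 16 in JW81, 12 in JW14 and 9 in 5C. Over all tested genes the share that was lower ran from 46.4% to 59.8%. With 1 library of each name per leukemia, the difference between leukemias in this change was not tested.

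**Figure D5:**
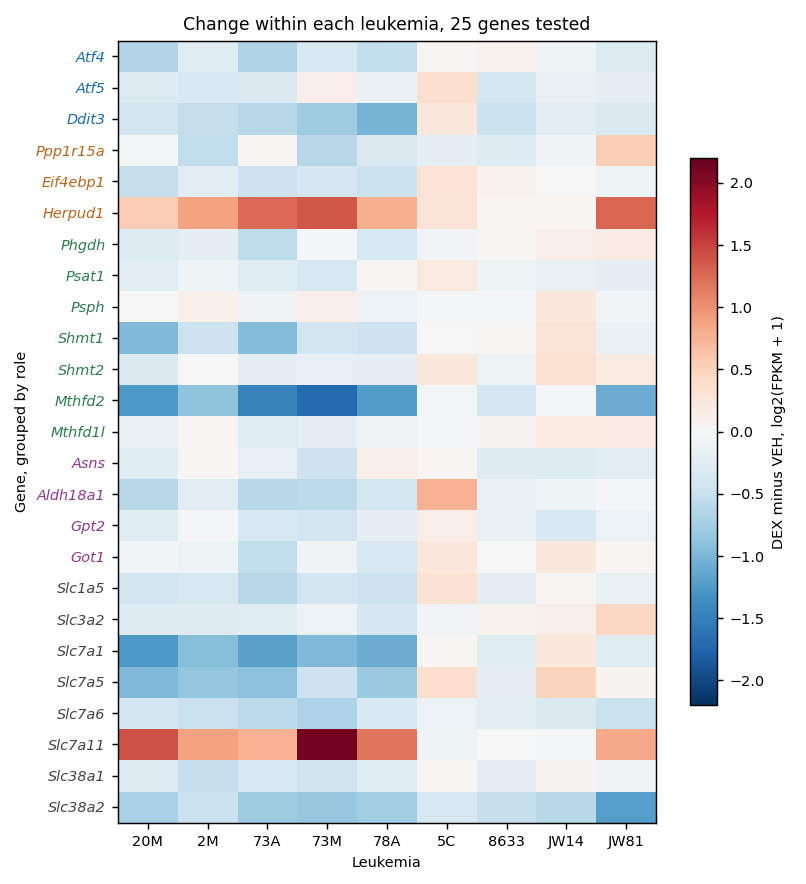
Difference between the DEX and the VEH library in log2(FPKM + 1), as colour, for the 25 tested genes (rows) in each leukemia (columns). Red cells are higher and blue cells lower in the DEX library, and the columns of 5C, 8633 and JW14 are the palest for the 7 genes that passed, with median sizes of 0.13, 0.27 and 0.24.

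Marker lists of other cells moved with the column name in part of the leukemias. The mean log2(FPKM + 1) of 9 erythroid markers, each detected above 1 FPKM in some library, was lower in the DEX library by -0.82 in 73A and -2.33 in 73M and differed by -0.07 to 0.28 elsewhere. Of the B lineage and myeloid lists, 3 of 9 and 2 of 10 markers were under 1 FPKM in all 18 libraries. In 73M the B lineage (-0.99), myeloid (-0.75) and plasma cell (-1.43) lists were lower too. Other leukemias shifted as well. The myeloid list was at -0.75 in JW81 and -0.33 in 73A and between -0.26 and 0.33 elsewhere. The plasma cell list was at -0.57 in 8633 and -0.41 in 73A and between -0.33 and 0.40 elsewhere. The T lineage list differed by -0.09 on average over the 9 leukemias and was lower in 8. The stroma and endothelium list differed by 0.05 on average and was lower in 1. Single markers called lower in edgeR were *Cd5* of the T lineage (-0.62, adjusted p = 0.0108), *Sdc1* of plasma cells (-0.45, adjusted p = 0.0149) and myeloid *Itgam* (-0.47, adjusted p = 0.0369). In each marker list 0 were called higher. The part of these cells in the changes was not tested, beyond the fits that leave out leukemias. Without JW81 the 7 genes passed. Without 73A and 73M the fitted change was -0.65 for *Slc38a2* (adjusted p = 0.0124) and -0.34 for *Slc7a6* (adjusted p = 0.0266), which still passed. It was 0.61 for *Herpud1* (adjusted p = 0.0655), -0.75 for *Mthfd2* (adjusted p = 0.0577) and 1.10 for *Slc7a11* (adjusted p = 0.0814), which kept their direction and did not pass. With a term for the ribosomal RNA group of libraries these 5 genes passed, with *Slc7a11* at 1.05 (adjusted p = 0.0364). *Slc7a1* and *Ddit3* did not pass with that term, at -0.66 (adjusted p = 0.105) and -0.48 (adjusted p = 0.101). Nor did they pass when 20M, 2M, 73A or 73M was left out, with fitted changes of -0.61 to -0.66 and -0.49 to -0.54, and *Slc7a1* also not without 78A (-0.64).

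Genes of the same pathway that are not on the list were counted in 6 further lists, in which 19 of 88 tested genes passed (21.6%), 8 higher and 11 lower in the DEX libraries, against 13.0% of all tested genes (6.22% higher and 6.79% lower). The share was 2 of 20 for the synthetase list, 18.2% for folate and glycine genes, 28.6% for glutamine, proline and branched chain enzymes, 36.4% for other transporters and 43.8% for eIF2 kinases and sensors, each over 11 to 20 genes. Among 20 aminoacyl-tRNA synthetase and tRNA export genes, most of them textbook ATF4 targets, 1 rose and 1 fell, with a median of -0.06. *Vars*, the valine enzyme, rose by 0.27 ± 0.07 (SE, adjusted p = 0.0292, 9 of 9 leukemias), and *Xpot*, the exportin for tRNA, changed by -0.31 (adjusted p = 0.0456, lower in 8 of 9). Of 16 tested chaperones and other genes of the unfolded protein response 0 passed in edgeR and 1 in DESeq2, 2 had an unadjusted p under 0.05 in edgeR, with 15 of the 16 fitted changes below 0 and a median of -0.09. In the alternatives *Hyou1*, an endoplasmic reticulum chaperone, passed in 3 of 21 and *Pdia4*, a protein disulfide isomerase, in 1, both with changes below 0. They are named after their values were seen.

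Among 16 tested eIF2 kinases, phosphatase genes and nutrient sensors, 4 rose and 3 fell. *Ddit4*, which encodes the mTORC1 inhibitor REDD1, rose in 9 of 9 leukemias, from 12.4 to 62.1 FPKM in the VEH libraries to 22.5 to 153 FPKM in the DEX libraries (log2 fold change 1.44, adjusted p = 0.00174). *Sesn1*, a leucine-sensing inhibitor of mTORC1, changed by 0.37 (adjusted p = 0.0391) and was higher in 6 of 9. Of the C/EBP factors in the list, *Cebpg*, a partner of ATF4, changed by -0.72 (adjusted p = 0.0323, lower in 9 of 9), while *Cebpb* had a fitted change of 0.49 (adjusted p = 0.0734, higher in 8 of 9) and did not pass. *Nfe2l2*, which encodes NRF2, a known activator of *Slc7a11*, changed by -0.50 (adjusted p = 0.00543, lower in 9 of 9). In 73M *Cebpg* went from 15.8 to 4.76 FPKM and *Nfe2l2* from 16.0 to 7.92 FPKM.

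Among 11 other tested amino acid transporters, 2 rose and 2 fell. *Slc43a1*, the leucine carrier LAT3, changed by 1.34 (adjusted p = 0.000874) and was higher in 9 of 9 leukemias, from 1.43 to 6.33 FPKM in 78A and from 7.86 to 18.7 FPKM in JW81, with 0.0619 and 0.0981 FPKM in 5C. *Slc43a2*, LAT4, changed by 0.76 (adjusted p = 0.0219, 7 of 9). *Slc16a10*, the aromatic amino acid carrier TAT1, changed by -0.73 (adjusted p = 0.00723) and was lower in 9 of 9. The mitochondrial glutamate carrier *Slc25a22* changed by -0.34 (adjusted p = 0.0456). The transporters thus did not move in 1 direction, with carriers called on both sides in the list of 35 and in this one.

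Of 11 other folate and glycine genes tested, 2 fell, both in 9 of 9 leukemias: *Mat2a*, which makes S-adenosylmethionine, by -0.48 and *Slc25a32*, the mitochondrial folate carrier, by -0.42 (adjusted p = 0.0225 for both). Among 14 enzymes of glutamine, proline, branched chain and glutathione metabolism, 1 rose and 3 fell. *Glul*, glutamine synthetase, rose by 0.68 (adjusted p = 0.0144, 8 of 9), from 10.6 to 27.3 FPKM in 73A. *Ppat*, which spends glutamine on the first step of purine synthesis, changed by -0.53 (adjusted p = 0.00765, lower in 9 of 9), and *Pycr3*, of proline synthesis, by -0.38 (adjusted p = 0.0181, lower in 9 of 9). The number of calls in these 6 lists ran from 7 without 20M to 29 without 5C, and was 9 to 11 without 2M, 73A, 73M or JW81. Of the genes named from them, *Ddit4*, *Slc43a1* and *Slc16a10* passed in 19 of 21 alternatives, *Nfe2l2* and *Glul* in 18, *Ppat* and *Pycr3* in 17, *Mat2a* and *Slc43a2* in 13 and *Slc25a32* in 12 of 20. The calls of *Cebpg* and *Sesn1* (9 of 21), *Slc25a22* (9 of 20), *Vars* (8 of 21) and *Xpot* (7 of 21) were lost in most alternatives.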

How the data were processed

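RNA from the bone marrow of transplanted mice was poly(A) selected, made into TruSeq libraries and sequenced in paired ends. The authors aligned reads with Bowtie 2 to mm10 and estimated expression with RSEM. The annotation and the RSEM version are not given in the sources used here. The deposited values are expected counts per gene, not normalized for depth or length, although the table is named for FPKM. They were rounded to whole numbers for the count tests.

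FPKM were calculated from the counts, the merged exon length of GENCODE release M21 (found for 37693 of 39017 genes) and the library total, and levels are log2(FPKM + 1). On this scale a difference understates the change of low genes. Libraries were taken from 9 leukemias that the paper names. Leukemia 4638, which it does not name, entered only as values and as an alternative. Leukemias come from the labels, and VEH and DEX from the column names, where the last part of 3 DEX column names (2M, 73A and 4638) differs from that of the sample label.

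DEX and VEH libraries were compared in edgeR 4.0.16 (R 4.3.3) by the quasi-likelihood test with TMM scaling, the leukemia as a block, 11339 genes that averaged 1 FPKM or more and Benjamini-Hochberg adjustment over all of them. Both libraries of 1 leukemia are from mice transplanted with it, which is the source of the pairing, and p-values measure the spread between leukemias in this change. Standard errors were derived from the F statistic. Leukemias were compared in the same model by a joint test of their coefficients. DESeq2 1.42.0 was an alternative, and the scripts were tested on simulated data. A floor of 3 counts on 1 kb of exon was 0.0149 to 0.365 FPKM, depending on the library, and covers counting error only.

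The genes and lists were chosen with earlier results of these data known. Full values are given for *Atf4* and *Asns*, for genes called between DEX and VEH libraries, for the 3 genes of each role with the highest mean FPKM and for the 5 with the largest SD over leukemias, and in each further list for up to 4 called genes with the largest change. *Chac1*, *Trib3* and *Slc1a4* were described after their values were seen. Promoters are RefSeq windows of GRCm38.p6. Of 10 erythroid markers 9 were matched. Alternatives covered the count test, scaling, filters, depth, single leukemias and the ribosomal RNA group of libraries. The leukemias with a library of that group were fitted alone as a choice made after seeing the data. Human arrays and exome data were not analysed here. Some donor genotypes and 1 called gene of the further lists are not reported here.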

Additional observations from a re-analysis of the deposited data

Results flagged for a closer look

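In 5C 2 values stood apart from those of the other 8 leukemias by Dixon's test among 62 sets of 9 values, where chance alone gives about 3.1 (1 in 20). The DEX minus VEH difference of *Aldh18a1* in log2(FPKM + 1) was 0.76 in 5C, from 12.8 FPKM in the VEH to 22.4 FPKM in the DEX library, and -0.62 to -0.04 in the others. The difference of the mean over the 6 regulators was 0.14 in 5C and -0.44 to -0.14 in the others. The VEH library of 5C is one of the 5 with ribosomal RNA counts, at 47.1 counts per M counts. Its part in these values was not tested.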

How the results depend on the processing

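Of the 7 genes called between DEX and VEH libraries, *Slc38a2* passed in 20 of 21 alternatives, *Slc7a6* in 19, *Herpud1* and *Mthfd2* in 18, *Slc7a11* in 17 of 20, *Slc7a1* in 12 and *Ddit3* in 11 of 21. The count of 7 was 10 in DESeq2, 12 without a filter on FPKM, 2 without 73A and 73M and 0 in the leukemias with a library of the ribosomal RNA group alone (6 at an unadjusted p under 0.05), and ran from 5 (without 20M, 2M, 73A or 73M) to 12 (without 5C) when single leukemias were left out. Without the replicate block it was 1 (*Slc38a2*, adjusted p = 0.0409), since differences between leukemias then enter the spread. The further lists, with 19 calls, ran from 7 to 29 with single leukemias left out, and had 25 calls in DESeq2, 0 without the replicate block (7 at an unadjusted p under 0.05), 0 in the leukemias with a library of the ribosomal RNA group (23 unadjusted), 4 in those without one, 8 with the group as a term and 4 without 73A and 73M. For both lists the cause of the remaining shifts was not tested, though fits of fewer leukemias also have fewer samples. The count of 23 genes that differ between leukemias was 22 to 23 with single leukemias left out, 21 without 8633 and JW14, 17 at a mean of at least 5 FPKM and 31 without a filter, where fewer or more genes are tested. The mean level of 2.81 was 2.07 with a pseudocount of 0.1, 3.24 in TPM, 3.78 over the genes of at least 1 FPKM and 3.04 as a median over the genes, by the construction of each scale.

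Directions turned only for genes that had not passed and whose fitted changes were small. In the leukemias with a library of the ribosomal RNA group the change was 0.0130 for *Atf5*, 0.0295 for *Phgdh*, 0.13 for *Got1* and 0.0742 for *Slc3a2*. In those without one it was -0.0862 for *Shmt2* and -0.0200 for *Mthfd1l*. Without a filter it was -0.0114 for *Shmt2* and -0.0144 for *Mthfd1l*, without 8633 and JW14 -0.0082 for *Shmt2* and -0.0184 for *Mthfd1l*, after thinning to the smallest total -0.0021 for *Mthfd1l*, without 73A and 73M 0.0275 for *Got1*, and without the replicate block 0.0240 for *Slc3a2*. With single leukemias left out it ran from -0.0140 to 0.0532 for *Shmt2*, from -0.0157 to 0.0419 for *Mthfd1l* and from -0.0733 to 0.0217 for *Got1*. Levels are compared between genes on merged exon lengths, which reach 17236 bases for *Slc38a1*, and depth limits the genes under the filter, several of which have 0 to 8 counts in a library.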

Other observations

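Leukemia 4638, for which the sources used here give no further description, had both libraries. Its VEH and DEX libraries stood at 68.8 and 56.1 FPKM for *Atf4*, 42.0 and 33.3 FPKM for *Slc38a2*, 13.1 and 7.30 FPKM for *Mthfd2*, 27.4 and 35.9 FPKM for *Herpud1*, and 5.04 and 6.63 FPKM for *Slc7a11*. *Slc7a1* was 15.6 and 12.4 FPKM, *Slc7a6* 12.8 and 10.3 FPKM and *Ddit3* 9.95 and 5.01 FPKM, so each of the 7 genes called in the other leukemias lay on the same side here. Several genes that were low elsewhere were higher in 4638. *Atf3* was 0.694 and 0.396 FPKM, where the other 18 libraries reached at most 0.263 FPKM, and *Nupr1* was 0.952 and 0.678 FPKM, where they reached at most 0.240 FPKM. *Chac1* was 2.13 and 1.44 FPKM and *Slc6a9* 1.13 and 1.12 FPKM, above the highest of the other libraries (1.54 and 0.765 FPKM) except for *Chac1* in the DEX library. Marker lists stood apart in this leukemia. In its VEH and DEX libraries the mean log2(FPKM + 1) was 3.88 and 3.50 for T lineage markers (at least 4.75 in the other 18 libraries), 4.78 and 4.61 for myeloid (at most 3.37) and 1.66 and 2.10 for B lineage markers (at most 1.57). The erythroid list, at 3.13 and 3.78, was within the range of the others, which reached 3.86. The part of these cells in the levels was not tested.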
